A study of Mus musculus with 14 samples.

Results

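The genes described here are 10 members of the CXC chemokine system, chosen by name: the ligands Cxcl1, Cxcl2, Cxcl9, Cxcl10, Cxcl12, Cxcl13, Cxcl14 and Cxcl16, the signalling receptor Cxcr4 and the atypical receptor Ackr3. They are 10 of the 46904 genes in the table, and all 10 were above 0 in at least 2 libraries, the condition that left 46102 genes for testing. The rule lists gene symbols and sets no threshold on measured values, but the members were chosen with earlier results of these data known. Bulk RNA was sequenced from the brain hemispheres of male mice on a C57BL/6J background, 12 weeks old, collected 48 h after a 20 min filament occlusion of the left middle cerebral artery with reperfusion. The question was how the ischemic hemisphere (MCAO) differed from the contralateral hemisphere (CL), and whether mice lacking the neuropeptide cortistatin (Cort-/-) differed from wild-type mice (Cort+/+). The groups were Cort+/+ CL with 3 libraries, Cort+/+ MCAO with 3, Cort-/- CL with 3 and Cort-/- MCAO with 5.

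The contralateral hemispheres came from brains that had also undergone the occlusion, so no group was free of surgery, and the deletion in Cort-/- mice was present in the whole animal. According to the methods, replicates that did not cluster clearly were left out of comparisons with wide variation, and the Cort+/+ MCAO libraries carry the numbers 2, 3 and 4. Recovered depth was 25991116 to 43034555 reads per library. Cort, the targeted gene, had 64 to 139 reads in Cort+/+ libraries and 0 to 4 reads in Cort-/- libraries, as their labels give. Neuron, astrocyte and microglia markers, the defining markers of brain tissue, were present in every library. Because whole hemispheres were measured, fewer cells of a type and less RNA per cell cannot be told apart in any value below.

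Chemokines are small secreted proteins that steer leukocytes, and CXC chemokines carry a single residue between their first pair of conserved cysteines. Cxcl1 and Cxcl2 attract neutrophils through Cxcr2, Cxcl9 and Cxcl10 are interferon-induced ligands of Cxcr3 on activated T cells and natural killer cells, Cxcl13 attracts B cells through Cxcr5, and Cxcl16 is a membrane-anchored ligand of Cxcr6. Cxcl12 signals through Cxcr4 and is scavenged by Ackr3, an axis that guides neural and hematopoietic cells and is active in the adult brain, where Cxcl14, a homeostatic chemokine, is also made by neurons.

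The unit of every level is RPKM, in which reads are divided by gene length and library size so that genes can be compared per length. Differences are log2 differences of RPKM + 0.1 from limma, a linear model fitted over all tested genes, and a gene was called changed at a Benjamini-Hochberg adjusted p under 0.05 over the 46102 genes.

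The members ranged from nearly undetected to abundant. In the Cort+/+ CL hemispheres the mean level in RPKM fell in the order Cxcl14 at 42.4 ± 3.74 (SD, n = 3), Cxcl12 at 7.63 ± 1.13, Ackr3 at 2.45 ± 0.243, Cxcr4 at 0.772 ± 0.0779 and Cxcl16 at 0.452 ± 0.0379, and none of these neighbours overlapped. Below them Cxcl10, Cxcl13 and Cxcl1 overlapped each other, followed by Cxcl2 and Cxcl9, which were at or near 0. In the Cort-/- MCAO hemispheres the order was different. Cxcl14 still led, but Cxcl12, Cxcl10, Cxcl16 and Ackr3 came next with each overlapping its neighbour in that order, ahead of Cxcr4. Cxcl14 and Cxcl12 had 1048 reads or more in every library, and Cxcl1, Cxcl2, Cxcl9 and Cxcl13 had 20 reads or fewer.

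**Figure D1:**
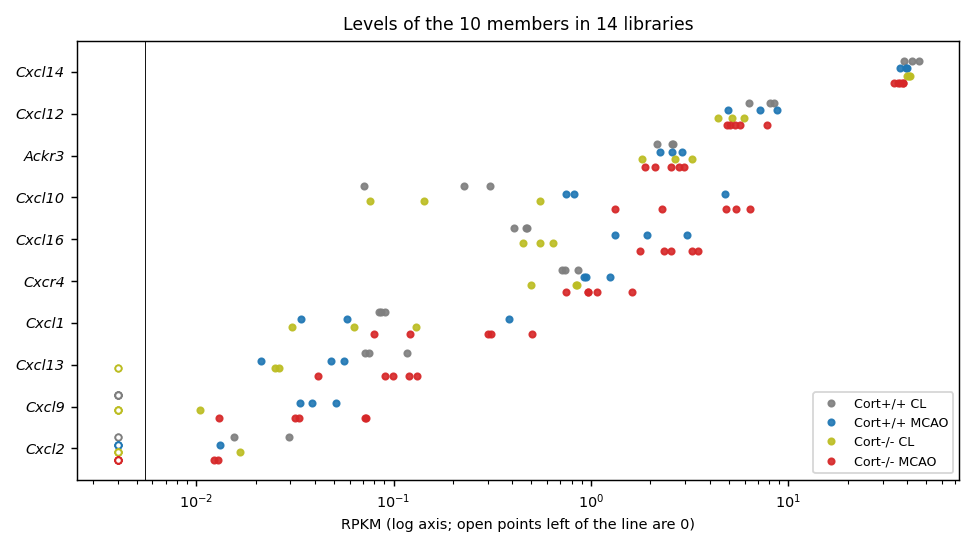
Level of each of the 10 members in RPKM on a log axis, 1 point per library and 1 colour per group. Cxcl14 and Cxcl12 lie above the other members in the contralateral hemispheres, and open points left of the line mark libraries in which a gene was at 0.

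Sequence is shown for the start sites of Cxcl10 and Cxcl9, which were called over both genotypes, and of Cxcl1 and Cxcl2, which were not called. The stretches lie upstream of the annotated transcription start, were taken from RefSeq (GRCm38.p6) and were located in GRCm39 by an exact, unique match, which gives the coordinates below. Promoters of 9 of the 10 members were matched, all but Cxcl16. Capitals mark matches to an interferon-stimulated response element, searched as TTTC, any 2 bases and TTTC, or to the NF-kappaB consensus, on either strand.
Cxcl10, chr5:92496749-92496998, minus strand: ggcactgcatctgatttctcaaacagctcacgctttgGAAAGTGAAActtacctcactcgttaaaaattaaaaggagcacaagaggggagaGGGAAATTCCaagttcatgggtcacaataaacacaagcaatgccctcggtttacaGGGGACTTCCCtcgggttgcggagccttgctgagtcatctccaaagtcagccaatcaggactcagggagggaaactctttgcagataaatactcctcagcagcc
Cxcl9, chr5:92475946-92476188, minus strand: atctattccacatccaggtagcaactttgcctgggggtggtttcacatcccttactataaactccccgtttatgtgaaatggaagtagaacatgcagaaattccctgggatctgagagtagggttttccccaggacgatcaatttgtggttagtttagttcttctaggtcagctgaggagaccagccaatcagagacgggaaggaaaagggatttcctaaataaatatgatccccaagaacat
Cxcl1, chr5:91038994-91039053, plus strand: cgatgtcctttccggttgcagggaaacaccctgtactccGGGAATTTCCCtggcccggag
Cxcl2, chr5:91051628-91051687, plus strand: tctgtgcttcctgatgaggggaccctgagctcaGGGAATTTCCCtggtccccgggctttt

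All offsets count from the RefSeq start. For Cxcl1, Cxcl2 and Cxcl14, among others, that start lies inside the gene as annotated in GRCm39. Their offsets are therefore not distances from the annotated start. In the Cxcl10 promoter the response element lay at −213 to −204 from the start and the NF-kappaB matches at −159 to −150 and, overlapping each other, at −104 to −95 and −103 to −94. Cxcl1 and Cxcl2, neighbouring genes on chromosome 5, shared the same 11-letter pair of overlapping NF-kappaB matches, at −71 to −61 and −97 to −87. In the Cxcl9 window none of these letters were found, and neither was the interferon-gamma activated site, searched as TTCNNNGAA. In 32851 promoters of 250 bases before the start, 2.98% held the response element, 7.02% the activated site and 7.25% the NF-kappaB match. A match is a string of letters and not evidence of binding. Cxcl14 held an activated site at −191 to −183 and a response element at −172 to −163, while Cxcl12, Cxcl13, Cxcr4 and Ackr3 held none of the searched letters.

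Across ischemia, the interferon-induced ligand Cxcl10 and the membrane-anchored ligand Cxcl16 had the largest differences of the members on the log2(RPKM + 0.1) scale, and Cxcl9 was also called higher, at a far lower level. That scale shrinks the difference of Cxcl9, whose depth-scaled read ratio in Cort-/- mice was 13.4 (exact binomial interval 2.21 to 551.5, 26 reads against 1), beside a ratio of mean RPKM of 4.89 for Cxcl16. Cxcl12, Cxcl14 and Ackr3, the abundant members, were not called. Over both genotypes together, Cxcl9, Cxcl10 and Cxcl16 were called higher, which is 3 of the 10 members beside 2.52% of all tested genes called higher. No member was called lower. The same 3 members were higher in every MCAO library than in any CL library across genotypes, as were 1.72% of all genes.

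Within Cort-/- mice 2 of the 10 members, Cxcl10 and Cxcl16, were called higher, beside 1.34% of all genes. Within Cort+/+ mice none of the 10 was called by limma, beside 0.0108% of all genes, whereas 3 members (Cxcl9, Cxcl10 and Cxcl16) had an unadjusted p under 0.05 (7.87% of all genes) and voom on the recovered reads called 2 (Cxcl9 and Cxcl16). Within Cort-/- mice voom called 3, Cxcl9 beside Cxcl10 and Cxcl16. The share of all genes that voom called is not given here, so its counts cannot be weighed against one. The groups did not overlap for 4 members that were higher in Cort+/+ MCAO (Cxcl9, Cxcl10, Cxcl16 and Cxcr4, where 5.73% of all genes did so) and 1 that was lower (Cxcl13, 4.11%). In Cort-/- mice the 4 higher members were Cxcl9, Cxcl10, Cxcl13 and Cxcl16 (4.85% of all genes) and the lower one was Cxcl14 (4.27%). The median log2 difference of the 10 members was 0.14 in Cort+/+, 0.48 in Cort-/- and 0.30 over both genotypes, beside medians of all genes at or near 0.

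**Figure D2:**
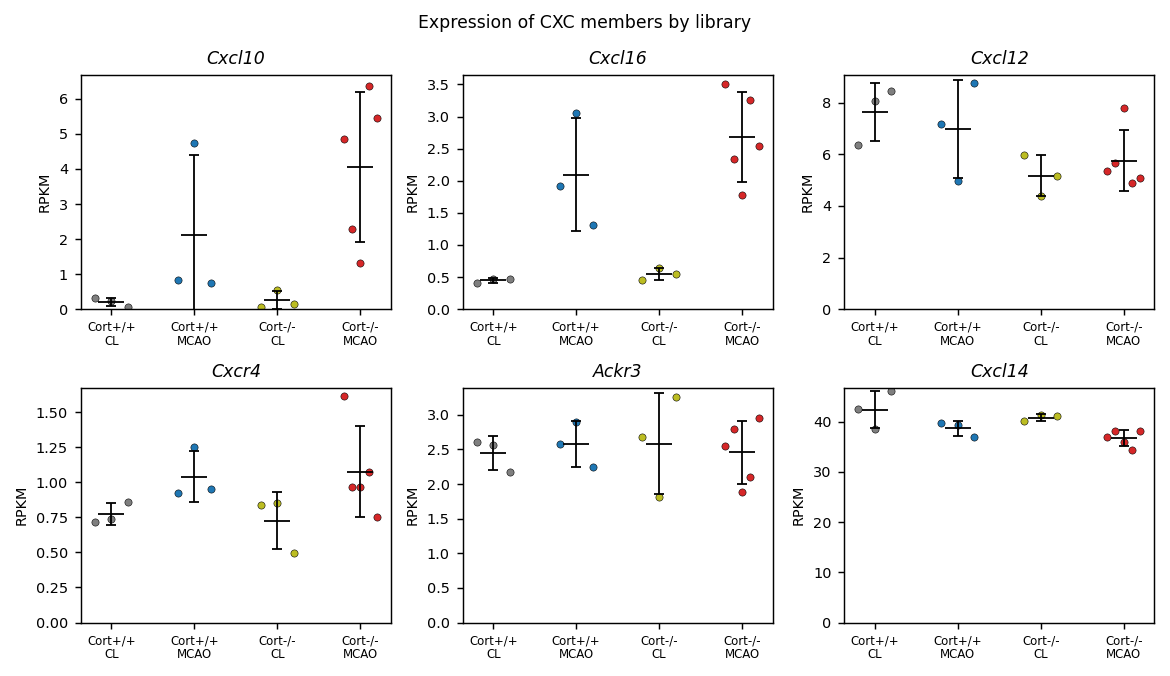
RPKM of the members in each library, grouped by genotype and hemisphere, with the mean and SD of each group. Cxcl10 and Cxcl16 are higher in all 8 MCAO libraries than in the 6 CL libraries; the SD bar of Cxcl10 in Cort+/+ MCAO runs below 0 and is cut at the axis.

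Cxcl10 (ENSMUSG00000034855, chromosome 5, 92494497 to 92496748 on the minus strand, GRCm39) is induced by interferons and inflammatory signals and recruits Cxcr3-bearing lymphocytes. In Cort+/+ mice it measured 0.308, 0.228 and 0.0705 RPKM in the CL libraries and 0.823, 4.75 and 0.744 RPKM in the MCAO libraries. In Cort-/- mice the CL libraries held 0.0763, 0.554 and 0.142 RPKM and the MCAO libraries 4.85, 2.30, 1.32, 6.36 and 5.44 RPKM. The lowest MCAO library of either genotype lay above the highest CL library, and the MCAO libraries spread widely, with replicate 3 of Cort+/+ standing well above the other two.

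The log2 difference of Cxcl10 was 3.57 (SE 0.66, 95% interval 2.15 to 4.99) in Cort-/- mice, with an adjusted p of 0.0213 by limma and a 15.8-fold ratio of mean RPKM. In Cort+/+ mice it was 2.46 (SE 0.74, interval 0.87 to 4.05), with a ratio of means of 10.4 and an adjusted p of 0.34, so it was not called. Over both genotypes it was 3.01 (SE 0.49) with an adjusted p of 0.00586. The Cort+/+ value rested in part on replicate 3: without it the difference was 1.64, with an unadjusted p of 0.0317 and an adjusted p of 0.761 by limma. The Cort-/- call was lost, at adjusted p values between 0.05 and 0.104, when CL replicate 1 or 3 or MCAO replicate 1, 4 or 5 of that genotype was left out.

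Cxcl10 lies within Art3, which is transcribed from the opposite strand. The library kit keeps strand, but the strand setting of the counting was not given in the sources used here. Art3, chosen after its values were seen, had a log2 difference of −0.08 over both genotypes (adjusted p 0.888).

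Cxcl9 (ENSMUSG00000029417, chromosome 5, 92469206 to 92475945), the neighbouring interferon-gamma-induced ligand of the same receptor, was detected almost only in ischemic hemispheres. Its reads were 0, 0 and 0 in Cort+/+ CL, 4, 6 and 3 in Cort+/+ MCAO, 0, 1 and 0 in Cort-/- CL and 9, 4, 1, 4 and 8 in Cort-/- MCAO. Each MCAO library exceeded every CL library of its genotype in RPKM, from 0.0131 to 0.0722 against 0 to 0.0104. The 0 reads in the Cort+/+ CL group allow up to 3 reads, and against that floor the 13 reads of Cort+/+ MCAO gave a depth-scaled ratio of 4.35. The exact binomial interval of 13 reads against 0 had a lower end of 3.06.

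Against 1 read of Cxcl9 in Cort-/- CL, the 26 reads in Cort-/- MCAO gave a depth-scaled ratio of 13.4 with an exact binomial interval of 2.21 to 551.5. Such intervals cover counting error only. On the limma scale the difference over both genotypes was 0.48 (SE 0.10, adjusted p 0.0184), a value that understates a change in a gene so close to the added 0.1 RPKM. The call was lost without Cort+/+ MCAO replicate 3 (adjusted p 0.0545), Cort-/- CL replicate 1 (0.0531) or Cort-/- CL replicate 3 (0.0506).

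**Figure D3:**
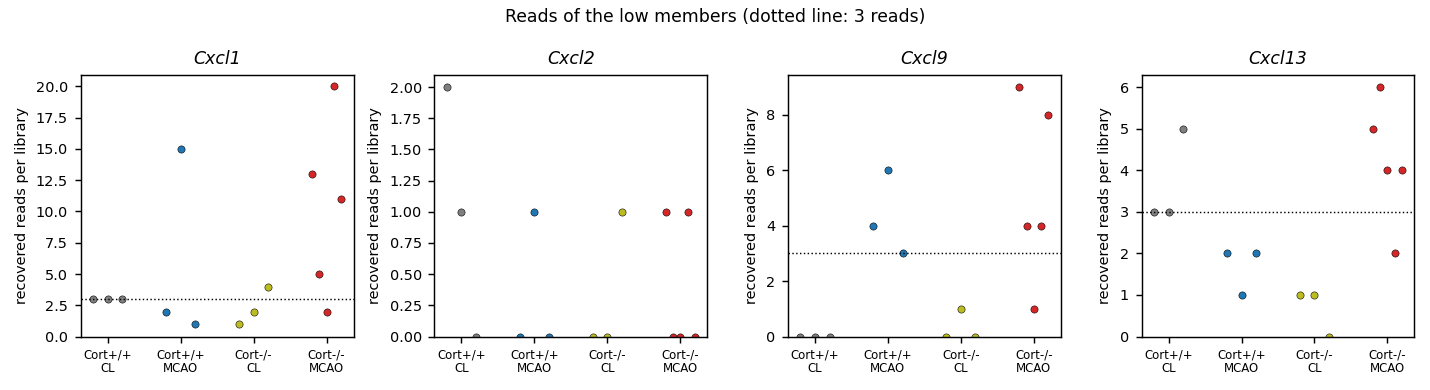
Recovered reads of Cxcl1, Cxcl2, Cxcl9 and Cxcl13 in each library by group, with a dotted line at 3 reads. Cxcl9 has 0 or 1 read in every CL library and 1 to 9 reads in the MCAO libraries, and Cxcl2 never exceeds 2 reads.

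Cxcr3, the receptor of Cxcl9 and Cxcl10, was itself at 0 to 4 reads in every library. Of the T cell markers, Cd3d, Cd3e and Cd3g had at most 5 reads in any library and Cd8a at most 4, whereas Trac had 12 to 32, Lck 33 to 93 and Cd4 71 to 523. Of the 7, 1 was called over both genotypes and it was lower (Cd4, by limma and voom), while 5 had a positive log2 difference and 4 an unadjusted p under 0.05. Those 4 were Cd4 and, with positive differences that were not called, Trac at 0.41 (adjusted p 0.206), Cd8a at 0.17 (0.232) and Cd3g at 0.30 (0.333). Cd4 had far more reads than the Cd3 genes, and which cells held them was not tested. Its difference therefore does not by itself measure T cells. The natural killer cell genes Ncr1 and Gzmb had at most 3 reads in any library. None of the 5 natural killer cell markers was called by limma or voom, and none had an unadjusted p under 0.05 by limma.

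Cxcl16 (ENSMUSG00000018920, chromosome 11, 70344517 to 70352620) is made with a transmembrane stalk, acts as an adhesion molecule and scavenger receptor on myeloid cells and is released by shedding. Its RPKM was 0.408, 0.471 and 0.477 in Cort+/+ CL and 1.92, 3.06 and 1.32 in Cort+/+ MCAO. In Cort-/- mice it was 0.451, 0.646 and 0.549 in CL and 3.499, 2.34, 1.78, 3.26 and 2.54 in MCAO. All CL libraries sat close together and all MCAO libraries were higher by a wide margin in both genotypes.

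The log2 difference of Cxcl16 was 2.07 (SE 0.25, interval 1.54 to 2.61, adjusted p 0.00579) in Cort-/- mice and 1.92 (SE 0.28, interval 1.32 to 2.51, adjusted p 0.0584) in Cort+/+ mice. The ratios of mean RPKM were 4.89 and 4.64. Over both genotypes the difference was 2.00 (SE 0.19) with an adjusted p of 4.44e-04 by limma. In Cort+/+ mice Cxcl16 passed the threshold without MCAO replicate 4 of that genotype (adjusted p 0.00505) or without Cort-/- MCAO replicate 3 (0.0217), and it also passed under other scalings given in the closing section.

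Cxcl16 overlaps Med11 and Zmynd15 on the opposite strand, both chosen after their values were seen. Over both genotypes Med11 differed by 0.21 (adjusted p 0.0896) and Zmynd15 by 0.65 (adjusted p 0.0587) on the log2 scale. Cxcr6, the receptor of Cxcl16, was at 0 to 6 reads in every library.

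Cxcl1 (ENSMUSG00000029380, chromosome 5, 91039094 to 91040974), a neutrophil attractant through Cxcr2, was low throughout. Its reads were 3, 3 and 3 in Cort+/+ CL and 2, 15 and 1 in Cort+/+ MCAO, and 1, 2 and 4 in Cort-/- CL and 13, 5, 2, 20 and 11 in Cort-/- MCAO. The groups overlapped in both genotypes, and a single Cort+/+ MCAO library, replicate 3, held 15 of that group's 18 reads. That library also had the highest Cxcl10 of its group.

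The summed reads of Cxcl1 gave a depth-scaled MCAO to CL ratio of 3.77 (exact interval 1.70 to 9.85) in Cort-/- and 2.01 (0.857 to 5.07) in Cort+/+ mice. Across libraries the log2 difference was 0.96 (SE 0.45, unadjusted p 0.0519, adjusted p 0.401 by limma) and 0.22 (SE 0.50, adjusted p 0.974), and the latter turned to −0.36 without replicate 3. Cxcl2 (ENSMUSG00000058427), its close relative, had 7 reads in all 14 libraries together and at most 2 in any, so no fold is given.

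Cxcr2, which binds both, had 1 to 17 reads. The neutrophil-specific marker Ly6g had at most 3 reads in any library, and of 9 neutrophil markers 1 (Csf3r, the receptor of granulocyte colony-stimulating factor, also made by microglia) was called higher over both genotypes. Summed neutrophil marker RPKM ranged from 5.01 to 12.1 in CL and from 6.10 to 19.1 in MCAO libraries.

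Cxcl12 (ENSMUSG00000061353, chromosome 6, 117144945 to 117158328) is the constitutive ligand of the brain, made by vessels, meninges and neurons. It measured 6.35, 8.08 and 8.47 RPKM in Cort+/+ CL and 7.17, 4.97 and 8.75 RPKM in Cort+/+ MCAO. In Cort-/- mice it measured 5.96, 4.40 and 5.17 RPKM in CL and 5.37, 5.67, 7.80, 4.89 and 5.06 RPKM in MCAO. CL and MCAO overlapped in both genotypes, and Cort-/- MCAO replicate 3 lay apart above the other 4 of its group.

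The log2 difference of Cxcl12 between hemispheres was −0.16 (95% interval −0.61 to 0.29) in Cort+/+ and 0.14 (−0.26 to 0.54) in Cort-/- mice, with −0.01 (−0.31 to 0.29) over both. A change of 2-fold in either direction lay outside all of these intervals. The sign of the Cort+/+ value turned without MCAO replicate 3, to 0.06.

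Cxcr4 (ENSMUSG00000045382, chromosome 1, 128515936 to 128520044), its signalling receptor, measured 0.718, 0.737 and 0.861 RPKM in Cort+/+ CL and 0.924, 1.25 and 0.949 in Cort+/+ MCAO. In Cort-/- mice it measured 0.836, 0.850 and 0.496 RPKM in CL and 1.62, 0.969, 0.964, 1.08 and 0.751 in MCAO. The groups were separate in Cort+/+ and overlapped in Cort-/- mice.

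The log2 difference of Cxcr4 was 0.38 (SE 0.24, adjusted p 0.829) in Cort+/+, 0.50 (SE 0.22, adjusted p 0.347) in Cort-/- and 0.44 (SE 0.16, unadjusted p 0.0183, adjusted p 0.202 by limma) over both genotypes, none of them called. Ackr3 (ENSMUSG00000044337, chromosome 1, 90131689 to 90144473), which binds and internalizes Cxcl12, ranged from 2.17 to 2.61 RPKM in Cort+/+ CL, 2.25 to 2.90 in Cort+/+ MCAO, 1.82 to 3.26 in Cort-/- CL and 1.89 to 2.95 in Cort-/- MCAO. Its log2 difference over both genotypes was 0.01 (interval −0.28 to 0.30). All 4 groups overlapped, and Ackr3 gave no direction that held when single libraries were left out.

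Cxcl14 (ENSMUSG00000021508, chromosome 13, 56436352 to 56444603) had the highest level of the members in each of the 14 libraries. It measured 42.4, 38.6 and 46.1 RPKM in Cort+/+ CL and 39.8, 39.3 and 37.0 in Cort+/+ MCAO. In Cort-/- mice it measured 40.02, 41.3 and 41.0 RPKM in CL and 36.9, 38.2, 36.0, 34.3 and 38.2 in MCAO. The Cort-/- groups were separate, with every MCAO library below every CL library, and the Cort+/+ groups overlapped.

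The differences of Cxcl14 were small, at −0.13 (SE 0.06, adjusted p 0.661) in Cort+/+, −0.15 (SE 0.06, unadjusted p 0.0163, adjusted p 0.227) in Cort-/- and −0.14 (SE 0.04, adjusted p 0.0944 by limma) over both genotypes. Over both genotypes it passed the threshold when genes averaging under 0.5 RPKM were not tested (adjusted p 0.0421) and without Cort+/+ CL replicate 2 (0.031). Summed neuron marker RPKM was 1732 to 2124 in CL and 1541 to 1797 in MCAO libraries, and its part in the Cxcl14 values was not tested.

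Cxcl13 (ENSMUSG00000023078, chromosome 5, 96104810 to 96108927), the B cell attractant, had few reads, and its hemisphere difference had opposite signs in the genotypes, neither of them called. Its reads were 3, 3 and 5 in Cort+/+ CL and 2, 1 and 2 in Cort+/+ MCAO, against 1, 1 and 0 in Cort-/- CL and 5, 6, 4, 2 and 4 in Cort-/- MCAO. In RPKM the Cort+/+ CL libraries held 0.0719 to 0.117 and the Cort+/+ MCAO libraries 0.0213 to 0.0562, while the Cort-/- CL libraries held 0 to 0.0262 and the Cort-/- MCAO libraries 0.0417 to 0.132. Thus every Cort+/+ MCAO library lay below every Cort+/+ CL library, and every Cort-/- MCAO library lay above every Cort-/- CL library.

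The log2 difference of Cxcl13 was −0.41 (SE 0.20, adjusted p 0.673) in Cort+/+ and 0.74 (SE 0.18, adjusted p 0.0608) in Cort-/- mice. The difference between these differences was 1.14 (SE 0.27, interval 0.56 to 1.72), with an unadjusted p of 9.61e-04 and an adjusted p of 1 by limma over all genes. In summed reads the MCAO to CL ratio was 0.456 (exact interval 0.124 to 1.43) in Cort+/+ and 5.43 (1.33 to 47.8) in Cort-/- mice. Each of these values rests on at most 6 reads per library. Cxcr5, the receptor of Cxcl13, had 0 to 3 reads, and none of 5 B cell markers was called by limma over both genotypes (1 at an unadjusted p under 0.05). At such a p by limma there were 2 in Cort-/- alone, 0 in Cort+/+ alone, 1 between genotypes in CL and 1 for the interaction. None of these was called, and the part of B cells in the Cxcl13 values was not tested.

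**Figure D4:**
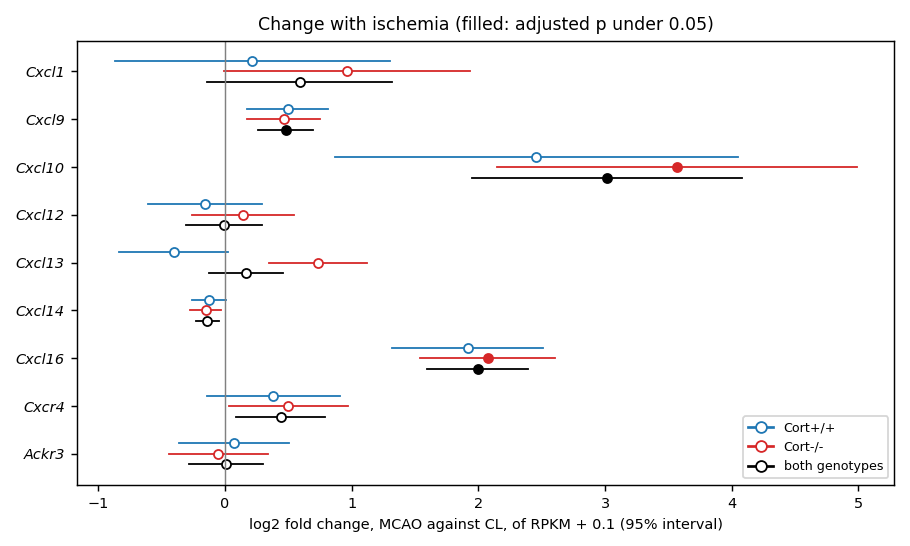
Log2 difference of 9 members (without Cxcl2) between MCAO and CL in Cort+/+, in Cort-/- and over both genotypes, with its 95% interval. Filled points have an adjusted p under 0.05. Cxcl10 and Cxcl16 lie far to the right, and no point of Cort+/+ alone is filled.

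Between genotypes none of the 10 members was called by limma in either hemisphere. In CL 2 members had an unadjusted p under 0.05 (Cxcl12 and Cxcl13, beside 3.91% of all genes) and voom called none, with 0.0152% of all genes called by limma. In MCAO 1 had an unadjusted p under 0.05 (Cxcl13, beside 3.82%) and voom called none, with 0.0174% of all genes called by limma. For the interaction, which asks whether the hemisphere difference depended on genotype, limma called none, 1 had an unadjusted p under 0.05 (Cxcl13, beside 3.31%) and voom called none, with 0.00217% of all genes called by limma.

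In the CL hemispheres the libraries of Cxcl12 and Cxcl13 did not overlap between genotypes, both lower in Cort-/-, where 2.35% of all genes were lower without overlap. The log2 difference of Cxcl12 was −0.55 (SE 0.21, interval −0.9995 to −0.10, unadjusted p 0.0201, adjusted p 1), a ratio of means of 0.679. That of Cxcl13 was −0.68 (SE 0.20, unadjusted p 0.00472, adjusted p 1), on 2 reads in Cort-/- against 11 in Cort+/+, a depth-scaled ratio of 0.197 (exact interval 0.0212 to 0.900). Summed endothelial marker RPKM was also lower in Cort-/- CL, at 37.6 to 43.5, than in Cort+/+ CL, at 45.3 to 51.2, with none of its 6 markers called by limma (1 at an unadjusted p under 0.05), and its part in the Cxcl12 values was not tested.

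In the MCAO hemispheres no member was separate between genotypes, as 2.42% of all genes were. Mean Cxcl10 was 4.06 ± 2.15 RPKM (SD, n = 5) in Cort-/- and 2.11 ± 2.29 (n = 3) in Cort+/+, a log2 difference of 1.21 (SE 0.66, interval −0.21 to 2.63, unadjusted p 0.0894, adjusted p 1). Cxcl16 was 2.68 ± 0.698 against 2.10 ± 0.885 RPKM, a log2 difference of 0.38 (interval −0.15 to 0.91). For Cxcl12 it was −0.25 (interval −0.65 to 0.15), and these intervals leave room for differences of either sign.

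The genotype comparison of Cxcl10 in MCAO turned on Cort+/+ replicate 3, whose 4.75 RPKM lay within the range of the Cort-/- libraries. Without it the log2 difference was 2.03 (unadjusted p 0.00652, adjusted p 0.735 by limma) and every remaining Cort+/+ MCAO library lay below every Cort-/- one. Cxcl1, Cxcl12 and Cxcl16 also had unadjusted p values under 0.05 without that library, with differences of 1.18, −0.47 and 0.68 and adjusted p values of 0.873, 0.937 and 0.876. That library was singled out after its value was seen. The shares of all genes with such a p or without overlap in that fit are not given here. These values therefore do not show a genotype difference. The interaction of Cxcl10 was 1.11 (interval −1.02 to 3.25) and that of Cxcl16 0.16 (−0.64 to 0.96) over all libraries.

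Among the ischemic hemispheres several members varied together, a pattern picked out after the values were seen. Over the 8 MCAO libraries, Cxcl10 and Cxcl1 had a Pearson r of 0.974 (Spearman rho 0.905) on log2(RPKM + 0.1), and Cxcl10 and Cxcl16 had an r of 0.916 (rho 0.857). Cxcl10 and Cxcl12 had an r of −0.949 (rho −0.905), so that the libraries with the most Cxcl10 had the least Cxcl12. Without the 2 libraries farthest from the median Cxcl10, both from Cort+/+ MCAO, r was 0.963, 0.881 and −0.934 over 6 libraries.

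After group means were subtracted, r over the 14 libraries was 0.822 for Cxcl10 with Cxcl1, 0.815 with Cxcl16 and −0.927 with Cxcl12. Over the 6 CL libraries these were 0.0901, 0.465 and −0.534. The receptor Cxcr4 followed Cxcl10 less, with an r of 0.346 over the MCAO libraries, and Cxcl12 with Ackr3 had an r of −0.529 over the MCAO libraries and 0.0527 without the 2 farthest. These are descriptions: both genes of a pair were read from the same library and share its depth and its piece of tissue.

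**Figure D5:**
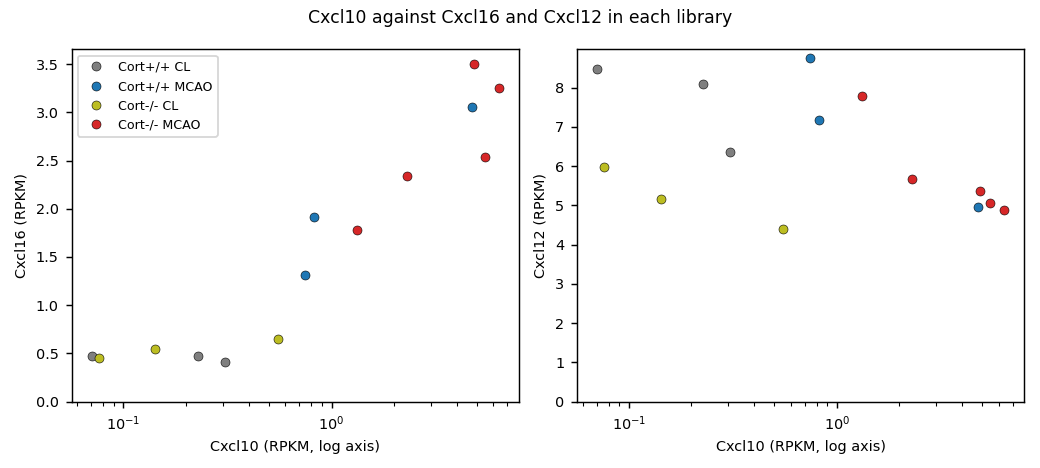
Cxcl10 in RPKM on a log axis against Cxcl16 and Cxcl12 in the same library, 1 point per library and coloured by group. MCAO libraries with more Cxcl10 tend to have more Cxcl16 and less Cxcl12, and Cort+/+ MCAO replicates 2 and 4 lie nearest to the contralateral libraries in Cxcl10.

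Markers of monocyte-derived cells were high in several of the MCAO libraries with much Cxcl10. Their summed RPKM was 1.42, 7.16 and 0.770 in Cort+/+ MCAO replicates 2, 3 and 4 and 8.32, 1.83, 1.49, 6.36 and 3.54 in Cort-/- MCAO replicates 1 to 5, against 0.447 to 1.92 in CL. The 3 libraries above 6 RPKM were among the 4 with the most Cxcl10. Over both genotypes 1 of the 5 markers was called higher (Plac8), and none of the 5 was at 3 reads or fewer in every library.

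Most microglial markers were called higher. Their summed RPKM was 89.1 to 103 in CL and 116 to 196 in MCAO, and 5 of 7 were called higher over both genotypes (Tmem119, Gpr34, Sall1 and Csf1r among them). Summed astrocyte marker RPKM was 774 to 946 in CL and 841 to 1026 in MCAO, with Aqp4 and Gfap called higher. Of the 6 astrocyte markers only 3 had a positive log2 difference over both genotypes (median −0.0176), and voom called 1 lower. Mean Gfap was 70.8 RPKM in Cort+/+ CL, 210 in Cort+/+ MCAO, 72.8 in Cort-/- CL and 280 in Cort-/- MCAO. Mean Slc1a2 was 248, 230, 250 and 214 RPKM in the same groups. The part of these cell types in the values of Cxcl10 and Cxcl16 was not tested.

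The genes most like each member were searched for among the 15063 genes whose mean reached 1 RPKM, by Pearson r over the 14 libraries. For Cxcl10 they were Ccl12, a monocyte-attracting CC chemokine (r 0.984, and 0.930 within groups), and Fes, a myeloid tyrosine kinase (0.982 and 0.932). Ccl12 ranged from 0.345 to 1.12 RPKM in CL and from 1.68 to 20.9 RPKM in MCAO. For Cxcl16 they were Rrm2, a subunit of ribonucleotide reductase (0.991 and 0.933), and Pbk, a mitotic kinase (0.988 and 0.875). Both of these cell-cycle genes were higher in every MCAO library than in any CL library, as were 1.72% of all genes. Choosing genes by likeness to Cxcl10 and Cxcl16, which separate the hemispheres, favours such a separation, so it is no independent result.

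For Cxcl12 the most alike were Steap2 (0.887 and 0.895 within groups) and S100b, an astrocyte calcium-binding protein (0.876 and 0.823). For Cxcl14 they were Fkbp1a (0.923 and 0.805), which binds the drug FK506, and Gm57390 (0.862 and 0.686). For Ackr3 the most alike was Arl4d (0.934 and 0.959). Cxcr4 and the low ligands had a mean under 1 RPKM and were not compared.

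The other genes of the CXC family were not called by limma or voom in any comparison. Of 7 other ligands 6 were tested, and Cxcl3, Cxcl11 and Cxcl17 had at most 5 reads in any library. Pf4, a platelet and macrophage product, was the highest of them at 0.555 ± 0.0679 and 0.782 ± 0.0925 RPKM in Cort+/+ CL and MCAO (n = 3 each) and 0.584 ± 0.399 and 1.12 ± 0.665 in Cort-/- CL and MCAO (n = 3 and 5). Its log2 difference over both genotypes was 0.64 (unadjusted p 0.0415, adjusted p 0.307 by limma).

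Cxcl5 was at 0.0470 to 0.165 RPKM and Ppbp at 0.140 to 0.215 RPKM in the group means. Among 6 other receptors Cxcr1, Cxcr2, Cxcr3, Cxcr5 and Cxcr6 had at most 17 reads in any library. Ackr1, which binds many inflammatory chemokines on venules and red cells, was listed at 32.0 to 34.8 RPKM in the group means, but it overlaps Cadm3, an abundant neuronal adhesion gene on the same strand, so its value is uncertain. Of both lists together, 1 ligand and no receptor had an unadjusted p under 0.05 over both genotypes by limma, and none was called. By voom 1 ligand and 1 receptor had such a p over both genotypes. By limma 1 ligand and 1 receptor had it in Cort-/- alone, and 1 ligand between genotypes in CL.

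Genes that act upstream and downstream of the members were taken from lists of known pathway genes. For comparison, limma called 2.52% of all tested genes higher over both genotypes and 1.34% higher in Cort-/- alone. No such share is given for the voom counts below. In Cort+/+ alone 7.87% of all tested genes had an unadjusted p under 0.05 by limma. Of 14 genes of interferon-gamma signalling, 5 were called higher and none lower over both genotypes. Among them were Gbp2, a guanylate-binding protein, with a log2 difference of 1.85 (adjusted p 0.00482), the feedback inhibitor Socs3 with 1.37 (0.022), Cd274 with 0.87 (0.0255), and Irf1 with 0.62 (0.0404). The ligand Ifng itself had at most 1 read in any library. In Cort-/- alone limma called 2, Gbp2 among them, and voom called 6. In Cort+/+ alone limma and voom called none, with 5 of the list at an unadjusted p under 0.05 by limma. The median log2 difference of the list was 0.26 in Cort+/+, 0.59 in Cort-/- and 0.38 over both.

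Of 16 tested genes that feed or carry NF-kappaB signals, 7 were called higher and none lower over both genotypes. Among them Myd88, the adaptor of Toll-like and interleukin-1 receptors, rose by 0.76 on the log2 scale (adjusted p 0.0103), the TNF receptor Tnfrsf1a by 1.11 (0.0141), the kinase Irak4 by 0.66 (0.0155) and the cytokine Il1a by 1.07 (0.0255). Tnf, Nfkb1 and Nfkb2 were the other called genes. In Cort-/- alone limma called 2 and voom called 5. In Cort+/+ alone limma and voom called none, with 7 at an unadjusted p under 0.05 by limma.

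Of 24 genes that relay chemokine receptor signals in leukocytes, 10 were called higher and 1 lower over both genotypes. Dock2, an exchange factor for Rac, rose by 1.36 (adjusted p 0.00252), Vav1, another exchange factor, by 1.27 (0.0028), and Rac2, the hematopoietic GTPase, by 1.35 (0.00527), all on the log2 scale. The one lower gene, Grk2, a kinase that desensitizes the receptors, differed by −0.09 (0.0438). In Cort-/- alone limma called 6 higher, and voom called 9 higher and 1 lower. In Cort+/+ alone limma and voom called none, with 10 at an unadjusted p under 0.05 by limma. Genes of this list are expressed by microglia and other myeloid cells, whose markers are given above.

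Of 9 proteases that cut or shed CXC ligands, 2 were called higher and none lower over both genotypes. Mmp12, the macrophage elastase, rose by 2.22 on the log2 scale (adjusted p 4.8e-05) and was also called in each genotype alone. Adam17, a sheddase of Cxcl16, rose by 0.34 (0.0225), from 3.70 ± 0.503 to 4.40 ± 0.563 RPKM in Cort+/+ (n = 3 each) and from 3.58 ± 0.210 to 4.87 ± 0.325 RPKM in Cort-/- mice (n = 3 and 5). Adam10, which sheds Cxcl16 constitutively, differed by 0.02 on the log2 scale and lay between 15.6 and 18.2 RPKM in all libraries. Mmp2, a protease that cleaves Cxcl12, differed by 0.50 (adjusted p 0.0576) and was not called, and Ctsg had at most 1 read.

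No gene of these 4 lists was called by limma or voom between genotypes in either hemisphere or for the interaction. In MCAO the median genotype difference was 0.22 for the interferon-gamma list, 0.16 for the NF-kappaB list, 0.05 for receptor signalling and 0.15 for the proteases, beside −0.00206 for all genes. Of these, 1 protease had an unadjusted p under 0.05 in MCAO, and none of the other 3 lists had such a gene in either genotype comparison or the interaction.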

How the data were processed

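The authors deposited a single table of RPKM values for 14 libraries, made from 100 bp paired-end reads of stranded polyA libraries; the submitters' processing notes name GRCm39, and the methods name reanalyzerGSE. The aligner, the counter and its strand setting are not given in the sources used here. The study tested read counts; since the deposited values are RPKM, log2(RPKM + 0.1) was fitted instead with limma 3.58.1 (R 4.3.3): 1 model of the 4 groups over all 14 libraries, eBayes with a trend, two-sided, Benjamini-Hochberg adjustment over 46102 of 46904 genes, those above 0 in at least 2 libraries. The fits were tested on simulated data.

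Whole reads were recovered from the RPKM steps for 100% of 495656 values above 0 (tolerance 0.01 read), giving 25991116 to 43034555 reads per library. They served voom, an alternative, and the exact 95% intervals of low genes. Depth limits members with few reads.

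The members, the gene lists and the alternatives were chosen with earlier results of these data known. The genes named were all members, the other CXC ligands and receptors, the 4 genes with the lowest p over both genotypes in each pathway list and the 2 genes most like each member; further genes are named as called genes or markers. Positions are from GENCODE (GRCm39). The methods describe the replicates of each hemisphere as independent and biological. The labels do not say whether a CL and an MCAO library came from the same animal. Python 3.11.15 with scipy 1.17.1 was used for the remaining steps. Some genes that these rules select or the lists count are not reported here.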

Additional observations from a re-analysis of the deposited data

Results flagged for a closer look

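Cxcl12 in Cort-/- MCAO replicate 3 was 7.80 RPKM, against 4.89 to 5.67 RPKM in the other 4 libraries of the group, and its distance from the nearest of them, divided by the range of the group, was 0.731, above the limit of Dixon's test at 95% for 5 samples. Of the groups tested in this way about 1 in 20 would stand out by chance. The Cort-/- MCAO to CL difference of Cxcl12 on the log2 scale was 0.14 with this library and 0.03 without it, and it was not called in either case.

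The difference of Cxcl13 between MCAO and CL had opposite signs in the genotypes, with no overlap of libraries within either. The interaction on the log2 scale was 1.14, with an unadjusted p of 9.61e-04 and an adjusted p of 1 by limma. It ranged from 1.03 to 1.26 when single libraries were left out and rests on 0 to 6 reads per library.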

How the results depend on the processing

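Between 23 and 24 alternatives were run per count of called members. Members called in Cort+/+ went from 0 to 1 (Cxcl16) with a pseudocount of 0.01, a filter at a mean of 0.5 RPKM, TPM, quantile normalization or library weights, to 2 with voom (Cxcl9, Cxcl16), and ranged from 0 to 1 with single libraries left out. Members called in Cort-/- went from 2 to 1 with a pseudocount of 1, to 3 with voom (Cxcl9, Cxcl10, Cxcl16) or library weights (Cxcl10, Cxcl13, Cxcl16), and ranged from 1 to 3 with single libraries left out, and over both genotypes the range was 2 to 4. With the replicate number as a replicate block, 0 members were called in Cort-/- and 0 over both genotypes (limma; 5 and 4 at an unadjusted p under 0.05), where Cxcl16 had adjusted p values of 0.328 and 0.13. The labels do not say whether a number marks the same animal in both hemispheres. Over 5 same-numbered pairs the correlation of deviations ran from −0.239 to 0.316, with 1 over 0.1. Of 5 CL libraries 1 correlated best with the MCAO library of its own number. So few correlations cannot decide whether the numbers pair the samples, and pairing is not known. No count of called members moved in the genotype comparisons or the interaction under the alternatives run. The cause of these changes was not tested.

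Of 1258 values of 54 single-member results, 51 turned sign (42 of them with a library left out), 14 lost and 15 gained a call. The signs that turned otherwise were small log2 differences: Ackr3 over both genotypes with quantile normalization (−0.0432), Cxcl12 over both genotypes (0.02) and Cxcl14 between genotypes in CL (0.00845) with TPM, Cxcr4 between genotypes in MCAO with library weights (−0.00489), Cxcl9 between genotypes in MCAO with a pseudocount of 0.01 (−0.0452), voom (−0.0253) or the replicate block (−0.0888), and the interactions of Cxcl10 (−0.0816) and Cxcl16 (−0.154) with the replicate block. With single libraries left out, the ranges that crossed 0 were, for MCAO versus CL, Cxcl1 in Cort+/+ (−0.364 to 0.566), Cxcl12 in Cort+/+ (−0.338 to 0.0642) and over both (−0.0989 to 0.102), and Ackr3 in Cort+/+ (−0.0171 to 0.161), Cort-/- (−0.276 to 0.13) and over both (−0.104 to 0.0995). Between genotypes in CL they were Cxcl1 (−0.361 to 0.0467), Cxcl10 (−0.457 to 0.488), Cxcl14 (−0.116 to 0.0115), Cxcr4 (−0.22 to 0.116) and Ackr3 (−0.139 to 0.268), and in MCAO Cxcl9 (−0.0514 to 0.1), Cxcr4 (−0.131 to 0.142) and Ackr3 (−0.17 to 0.00845). For the interaction they were Cxcl9 (−0.099 to 0.0527), Cxcl14 (−0.0877 to 0.0398), Cxcl16 (−0.121 to 0.457), Cxcr4 (−0.101 to 0.246) and Ackr3 (−0.345 to 0.0612).

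Cxcl13 in Cort-/- was called with library weights (adjusted p 0.0352) and without Cort-/- MCAO replicate 4 (0.0389), and Cxcl9 in Cort-/- with voom (0.0109) and without MCAO replicate 3 (0.0306). Cxcl10 in Cort-/- had an adjusted p of 0.0534 with a pseudocount of 1. The fit of only the groups compared could not be run over both genotypes or for the interaction.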
